A study of Gallus gallus with 6 samples.

Results

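The jejunal mucosa of unheated hens, the resting state of an absorbing and immune tissue, was described across 16317 genes in 3 control libraries, chosen by their sample titles out of 6 libraries in the series. Each control library was made from RNA mixed from 4 SUT breeder hens of 28 weeks kept at 23 °C, and the sources used here do not spell out the breed code. These 3 pools used 12 of the 25 control hens, of 50 hens in all. The other 3 libraries came from hens kept at 36 °C and were not used here, so no comparison of temperatures is made. The labels name no transgene, diet or drug. A pool stands for the mean of its hens, so the spread between pools is not the spread between single birds. The pools held 13805395, 13542604 and 13633493 estimated counts, and 15136, 15025 and 15054 genes were seen there by 1 count or more. Levels are given as FPKM, fragments per kilobase of gene length, scaled to the depth of the library, with the SD over n = 3 pools.

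The jejunum takes up most digested food in birds. Its villi are covered by enterocytes, whose brush border carries the last digestive enzymes and the transporters, and between them lie goblet cells, which secrete mucus, and enteroendocrine cells, which release hormones. Stem cells in the crypts renew this sheet. Chickens have no lymph nodes of the mammalian kind, and much of their immune tissue lies in the gut wall as scattered lymphocytes, plasma cells that release antibody, and follicles of B cells. Avian enterocytes send fat directly into the portal blood as lipoproteins. Hens also move large amounts of calcium across this epithelium for the eggshell.

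Transcripts were concentrated in few genes, and the leading ones belonged to antibody production, fat uptake and the ribosome. An FPKM of at least 1 in all 3 pools was reached by 11349 genes (69.6%), of at least 100 by 1003 genes and of at least 1000 by 144 genes. The 10 most abundant genes held 12.0% ± 0.807 of the summed FPKM, the 100 most abundant 44.8% ± 0.583 and the 1000 most abundant 77.1% ± 0.531. Of the 30 leading genes, 17 encode ribosomal proteins. The order was largely shared between the pools, since 27 of 30 and 94 of 100 leading genes held such a place in every pool. At the very top it was less fixed, with 6 of 10 genes.

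IGLL1, listed as an immunoglobulin lambda-like polypeptide and related to the antibody light chain, stood first, with 17396, 31164 and 22345 FPKM in pools 1, 2 and 3. FABP1, a carrier of fatty acids in the cell, had 19523, 19655 and 11530.2 FPKM. APOA1, the main protein of high-density lipoprotein, had 17139, 12019 and 9158 FPKM. The pool ranges of IGLL1 and FABP1 overlapped, as did those of FABP1 and APOA1, so their order was not fixed beyond the spread between pools. FTH1, a subunit of the iron store ferritin, came next with 9933, 11167 and 10951 FPKM and varied less. PLA2G2E, a secreted phospholipase A2, had 7511, 6466 and 12041 FPKM, with pool 3 highest. RBP2, the retinol carrier of enterocytes, had 7875, 9069 and 6068 FPKM. The other leaders outside the ribosome were LGALS2, a galectin that binds sugars (7199 ± 934 FPKM), TMSB4X, which binds actin monomers (6658 ± 567), FABP2, the intestinal fatty acid carrier (6510 ± 1538), ACTB (5781 ± 494), B2M, the light chain of class I histocompatibility molecules (4947 ± 277), and EEF1A1, an elongation factor of translation (4780.3 ± 450.0).

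LOC107051274, which has no name in the later annotation used here, was the leading gene with the widest spread, at 9289, 1930.2 and 4393 FPKM. The deposited FPKM imply a length of only 92.1 bases for it. Short implied lengths bear on the whole top of this order. They were 99.6 bases for RPL37A, 67.4 bases for RPL38, 97.0 bases for FABP2 and 215 bases for FABP1, beside a median of 2553 bases over genes with a mean count of at least 10. Genes under 200 bases, 144 of those at an FPKM of at least 1 in all pools, held 19.2% ± 1.02 of the summed FPKM but 2.36% ± 0.193 of the counts. Levels of such genes rest on a length that the table does not state. By counts, with no division by length, IGLL1 again came first with 1.51% of all counts, followed by APOA1 (0.873%), ACTB (0.816%), EEF1A1 (0.658%) and CALB1 (0.637%), and 10 of the 30 leading genes by FPKM were among the 30 leading genes by counts.

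**Figure D1:**
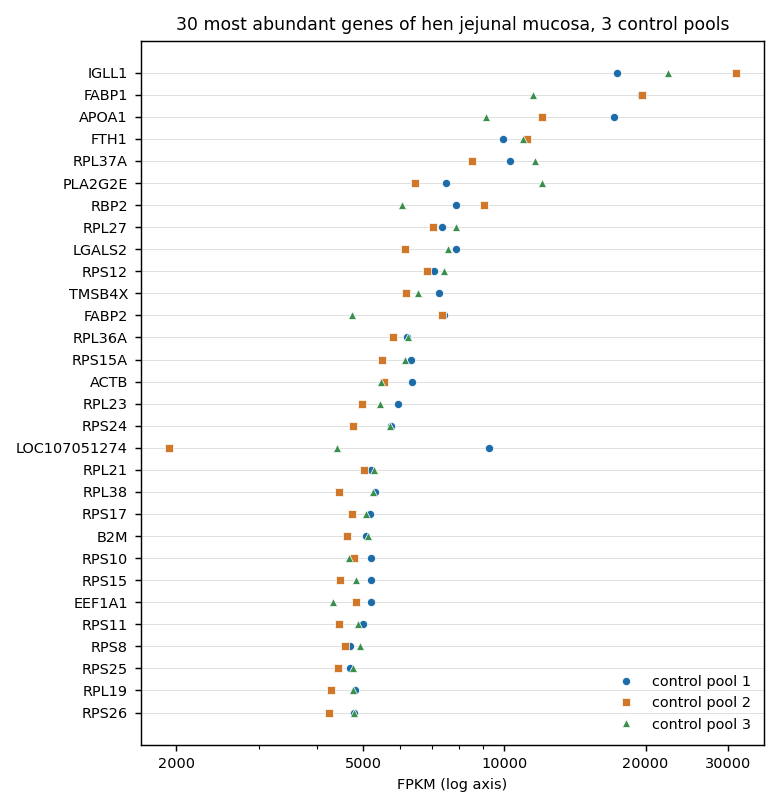
FPKM (log axis) of the 30 genes with the highest mean FPKM, 1 point per control pool. IGLL1 was highest in pool 2 at 31164 FPKM, FABP1 and APOA1 were lowest in pool 3, and LOC107051274 had the widest spread.

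Fat uptake took the largest share of the lists of absorptive genes. The 24 of 26 listed genes that were in the table held 4.45% ± 1.10 of the summed FPKM, at 5.31%, 4.83% and 3.21% in pools 1, 2 and 3, so pool 3 was lowest. In this bulk tissue, fewer cells of a type and less RNA per cell cannot be told apart. After FABP1, APOA1 and FABP2, APOA4, a lipoprotein component secreted with fat, was the fourth gene, with 3256, 2298 and 1201.3 FPKM. APOC3, which slows the clearance of lipoproteins, was also lowest in pool 3, with 91.8, 59.8 and 29.1 FPKM. The assembly genes varied less than APOA4 and APOC3, although MTTP was no steadier for its level than FABP2. APOB, the structural protein of these particles, had 109 ± 11.6 FPKM, MTTP, which loads APOB with fat, had 35.1 ± 9.38, and SAR1B, needed for the export of these particles, had 166 ± 7.37. Across all 13104 genes with a mean count of at least 10, 8.84% differed at least 2-fold between the highest and the lowest pool, and in this list 4 of 23 did. A gene that reaches that mean through 1 high pool must differ, so such counts describe the pools and no more. The 8.84% is set beside such counts below, but it is not matched to the depth of a list. The share fell from 35.2% at a mean count of 10 to 50 to 1.47% at 1000 or more. Lists of deep genes thus stand against a lower share, and lists of low counts against a higher one.

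Digestive enzymes of the brush border were led by ANPEP, aminopeptidase N, which trims peptides, with 904, 782 and 793 FPKM. The disaccharidases MGAM and SI, which split maltose and sucrose, had 336 ± 51.4 and 205 ± 37.7 FPKM. These 3 followed in that order with no overlap between pools, while SI and MEP1A overlapped. MEP1A, a subunit of the metalloprotease meprin, had 226, 91.5 and 205 FPKM. ENPP7, the alkaline sphingomyelinase, had 126, 37.2 and 109 FPKM. Both were lowest in pool 2, whereas MME, the endopeptidase neprilysin, was highest there, with 29.1, 46.3 and 15.9 FPKM. In this list 3 of 16 genes differed at least 2-fold, beside 8.84% of all genes with a mean count of at least 10. The median CV was 16.2%, beside 11.1% over all such genes. ALPI, listed as intestinal alkaline phosphatase and named ALPPL in the later annotation, stood at 0.983 ± 0.0833 FPKM. The proteins that build the microvillus were steadier, at 0.221% ± 0.00631 of the summed FPKM and a median CV of 5.77%. Of these, 1 of 14 genes (7.14%) was past 2-fold, close to the 8.84% of all genes.

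SLC5A1, the sodium-driven glucose transporter, led the sugar transporters at 479, 355 and 535 FPKM, with no overlap with any other. SLC5A9, a related mannose transporter, had 32.9 ± 7.70 FPKM, SLC2A5, the fructose transporter, 23.6 ± 5.64, SLC2A8 22.6 ± 1.26 and SLC2A2, the glucose exit of the basal side, 19.6 ± 3.49. The pool ranges of neighbours among these 4 overlapped. Of 10 sugar transporters, 3 differed at least 2-fold, beside 8.84% of all genes. Among them was SLC5A11, an inositol transporter, with 8.35, 5.11 and 12.6 FPKM. Transporters of protein digestion products were more alike between pools than the sugar transporters, and 0 of 16 differed at least 2-fold, beside 8.84% of all genes. Their median CV was still above the 11.1% of all genes, so that count does not mark them as steadier than genes in general. SLC15A1, which takes up di- and tripeptides, had 113 ± 14.5 FPKM, SLC1A1, which carries glutamate, 94.8 ± 12.5, SLC3A1, the heavy chain of the cystine carrier, 90.8 ± 7.89, and SLC7A6, an exchanger of cationic amino acids, 88.2 ± 7.09.

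CALB1, calbindin, the vitamin D dependent protein that ferries calcium across avian enterocytes, had 2830.25, 2358 and 2484 FPKM. It was thus far above ATP2B1, the pump that expels calcium at the basal side, at 78.1 ± 6.68 FPKM, and above VDR, the vitamin D receptor, at 60.1 ± 2.74. The phosphate transporter SLC34A2 had 12.1 ± 1.97 FPKM, and SLC34A1, its renal relative, had a count of 0 in all pools, which allows up to 3 counts in each. CYP24A1, which breaks down active vitamin D, had 2.35, 0.27 and 0.24 FPKM, with pool 1 highest, on estimated counts of 79, 9 and 8. It reached a mean count of at least 10 only through pool 1, so its difference describes the pools and no more. CASR, the calcium-sensing receptor, was the other of 2 genes past 2-fold among 12, with 0.27, 0.10 and 0.29 FPKM at a mean count of 14. Of all genes, 8.84% were past 2-fold.

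Ion transport was led by a hormone of salt secretion. The gene listed as GUCA2A, guanylin, and named GUCA2B, uroguanylin, in the later annotation, had 4961, 3628 and 4412 FPKM, and its receptor GUCY2C had 105.5 ± 15.4. ATP1B1, the beta subunit of the sodium pump, had 344 ± 53.9 FPKM. SLC26A6, an anion exchanger, had 147 ± 11.5 FPKM. AQP10, a water and glycerol channel, was the most uneven of this list among genes with a mean count of at least 50, with 16.3, 23.2 and 6.25 FPKM, so pool 3 was lowest. Among junction and keratin genes EPCAM, an adhesion protein of epithelia, led with 1706, 1395 and 1846 FPKM. It was followed by the gene listed as KRT20 and named KRT40 in the later annotation (839 ± 121 FPKM), KRT7 (696 ± 146) and CLDN2, a claudin that lets cations and water pass (369 ± 14.9). CLDN16 and KRT19 had a count of 0 in all pools. In this list 14 of 21 genes were lowest in pool 2 and 15 of 21 were highest in pool 3, beside 3836 and 4315 of 13104 genes.

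**Figure D2:**
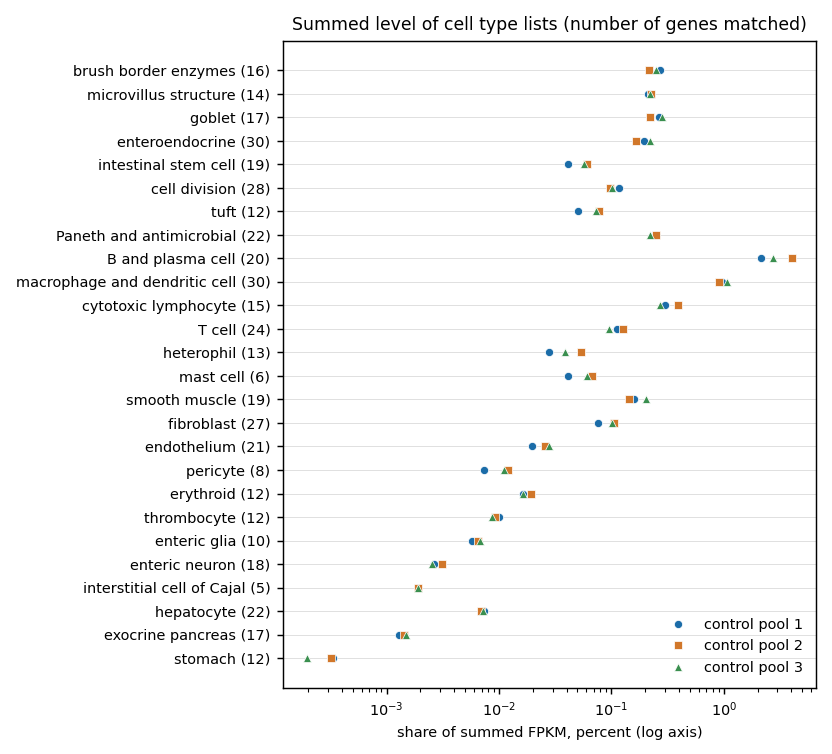
Share of the summed FPKM (percent, log axis) of each cell type list, 1 point per control pool, with the number of genes matched in brackets. B and plasma cell genes held 2.98% on average, whereas lists of the exocrine pancreas, the liver and the stomach each held less than the thrombocyte list. The liver list held more on average (0.00718%) than those of enteric glia (0.00639%), enteric neurons (0.00277%) and interstitial cells of Cajal (0.00191%).

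Goblet cell genes held 0.255% ± 0.0321 of the summed FPKM in 17 of 24 listed genes. AGR2, which folds mucins, had 1585, 1306 and 1741 FPKM, MUC13, a membrane mucin, had 199 ± 21.1, and CLCA1, a secreted mucus protease, had 180.3 ± 40.7. MUC2, the mucin that forms the gel, had 209.8, 137 and 222 FPKM. ST6GALNAC1, which adds sialic acid to mucins, differed most among goblet genes with a mean count of at least 50, with 31.0, 9.08 and 15.1 FPKM. Of 15 goblet genes with a mean count of at least 10, 10 were lowest and 0 were highest in pool 2, beside 3836 and 4860 of 13104 genes.

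Enteroendocrine genes held 0.194% ± 0.0274 of the summed FPKM, and their leading members were hormones. GIP, an incretin of the proximal small intestine in mammals, had 475, 448 and 452 FPKM, and SCT, secretin, which prompts bicarbonate release, had 414, 330.3 and 435. CHGA, a protein of secretory granules, had 325, 192 and 365 FPKM. GIP lay above SCT in every pool, while CHGA overlapped both with SCT and with NTS, neurotensin (223 ± 48.3 FPKM). GCG, which encodes the glucagon-like peptides, had 136, 87.9 and 172 FPKM. CCK, which releases bile and pancreatic enzymes, had 73.5, 42.1 and 110.2 FPKM, so both were lowest in pool 2 and highest in pool 3. SST, somatostatin, an inhibitor of the other hormones, had 74.8 ± 4.82 FPKM, and MLN, motilin, which drives contractions between meals, 62.3 ± 8.81. GHRL, ghrelin, had 1.82 ± 0.971 FPKM. The gene listed as PYY, named PPY in the later annotation, had estimated counts of 8, 0 and 1, too few to rank. PAX4, a factor of endocrine precursors, had a count of 0 in all pools. Over this list, 14 of 26 genes were highest in pool 3, beside 4315 of 13104 genes. At least 2-fold differences were seen in 5 of 26, beside 8.84% of all genes.

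Stem cell genes were dominated by OLFM4, a crypt glycoprotein, with 173, 349 and 301 FPKM, lowest in pool 1. HOPX had 41.4 ± 10.7 FPKM, CD44, the hyaluronan receptor, 39.8 ± 5.02 and LGR4, an R-spondin receptor, 38.4 ± 4.57. Of 19 stem cell genes, 14 were lowest in pool 1, beside 4787 of 13104 genes. Genes of cell division showed another order: 22 of 28 were highest in pool 1, beside 3929 of 13104 genes. Yet 0 of 28 differed at least 2-fold, beside 8.84% of all genes. CDK1, the kinase that starts mitosis, had 196, 158 and 183 FPKM, and HMGB2, a chromatin protein of dividing cells, 205, 142 and 184. PCNA, the clamp of the replication fork, had 79.7 ± 13.4 FPKM. The gene listed as UBE2C, named UBE2U in the later annotation, had 88.6 ± 15.8.

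Tuft cells, the chemosensory cells of the epithelium, were marked by TRPM5, their cation channel, at 31.6 ± 5.88 FPKM, and by ALOX5 (14.9 ± 2.86) and ALOX5AP (63.3 ± 11.4), which make leukotrienes. HPGDS, a prostaglandin D synthase that mast cells also express, had 374, 589 and 547 FPKM and was lowest in pool 1. Antimicrobial genes were led by PIGR, which carries polymeric antibody across the epithelium, with 1336, 1699 and 1494 FPKM. REG4, a lectin, had 383, 135 and 208 FPKM, and LYZ, lysozyme, had 104, 45.8 and 30.2. Both were highest in pool 1. LYG2, a goose-type lysozyme, had 34.4, 77.2 and 83.8 FPKM and was lowest there. LEAP2, an antimicrobial peptide that also binds the ghrelin receptor in mammals, was listed at 324 ± 147 FPKM, but on estimated counts of 34, 18 and 13 and an implied length of 4.89 bases, so that level is not comparable with others. The avian beta-defensins were near the floor. AvBD5 and AvBD9 had a count of 0 in all pools, and AvBD1 had 1 count in each pool. Of 10 antimicrobial genes with a mean count of at least 10, 5 differed at least 2-fold, beside 8.84% of all 13104 genes.

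B and plasma cell genes held more of the summed FPKM than any other immune cell list, and their order between pools was split. They held 2.13%, 4.06% and 2.74% of the summed FPKM in pools 1, 2 and 3, nearly all of it in IGLL1 and JCHAIN. JCHAIN, which joins antibody into polymers, had 2495, 5709 and 3170.2 FPKM, so both were highest in pool 2. PRDM1, which drives the plasma cell state, had 8.67, 11.2 and 9.56 FPKM, and IRF4, another plasma cell factor, 18.5, 21.3 and 15.5. They too were highest in pool 2, but within a narrower range. MZB1, a chaperone of antibody assembly, was instead highest in pool 1, with 93.7, 65.0 and 48.1 FPKM.

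Several genes of mature B cells before antibody secretion were instead highest in pool 1. PAX5, the factor that keeps B cell identity, had 31.7, 0.75 and 1.28 FPKM, on estimated counts of 633, 17 and 31. CXCR5, the receptor that brings B cells into follicles, had 11.5, 0.91 and 0.84 FPKM. TNFRSF13C, the receptor of the survival factor BAFF, had 7.63, 0.61 and 0.58 FPKM. In these genes pool 1 stood far above pools 2 and 3, which were close to each other. PAX5, CXCR5 and TNFRSF13C were named for their large ratio of highest to lowest pool. They reached the mean count required for that choice only through pool 1, so their difference describes the pools and no more. CD79B, a signalling chain of the B cell receptor, had 40.1, 8.34 and 7.98 FPKM. POU2AF1, a coactivator of antibody genes, had 27.1, 12.5 and 9.28 FPKM, and EBF1, an early B cell factor, 2.87, 0.47 and 0.68. These 6 of 19 list members were at least 2-fold higher in pool 1 than in each other pool, where 1.4% of all 13104 genes were. In all, 10 of 19 differed at least 2-fold between the highest and lowest pool, beside 8.84% of all 13104 genes. Without pool 1 this count was 0, beside 3.90% of all genes, and fewer are reached with 2 pools by construction. The gene listed as BLNK, an adaptor of B cell signalling named SH2D6 in the later annotation, had 55.6, 30.2 and 24.8 FPKM. BTK, with 35.9, 19.2 and 17.3 FPKM, and TNFRSF13B, with 4.11, 3.1 and 1.58, were also past 2-fold and highest in pool 1. Some others were highest in pool 1 by less than 2-fold. IKZF3 had 19.9, 16.8 and 11.4 FPKM, BCL6, of germinal centre B cells, 18.09, 15.25 and 13.34, and BLK, a B cell kinase, 16.08, 13.77 and 10.77. CD40, with 11.98, 11.73 and 10.63 FPKM, and CIITA, which controls class II genes, with 15.83, 15.84 and 14.77, barely differed.

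**Figure D3:**
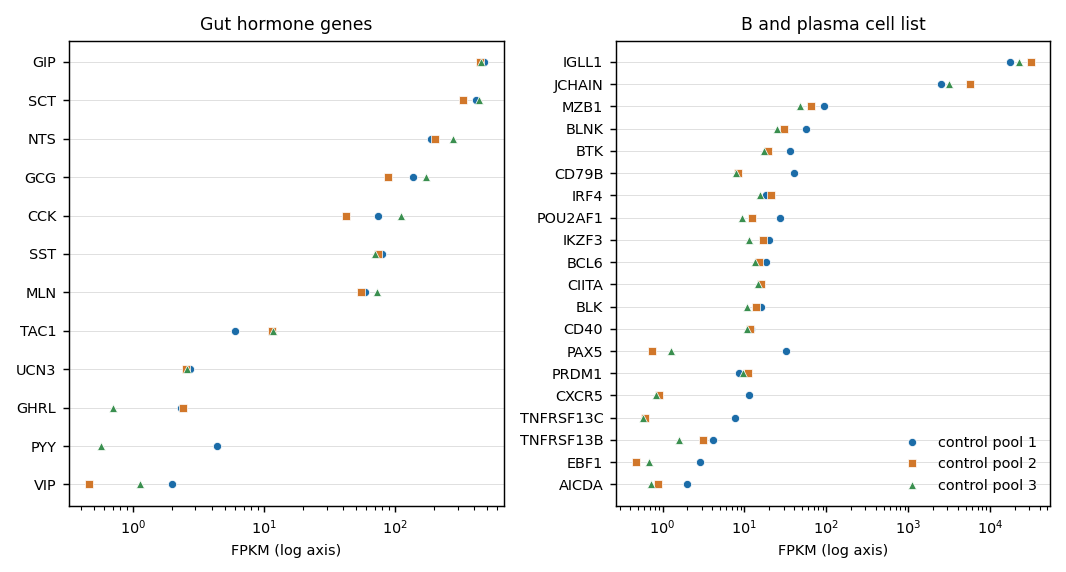
FPKM (log axis) of gut hormone genes on the left and of the B and plasma cell list on the right, 1 point per control pool. PYY is listed at 0 in pool 2 and has no point there, and PAX5, CXCR5 and TNFRSF13C were high in pool 1 while IGLL1 and JCHAIN were highest in pool 2.

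Some B cell genes were also among those with the largest spread in the table. Among genes with a mean count of at least 200, CD72, a B cell surface receptor, had the largest CV, with 39.9, 0.71 and 1.59 FPKM, followed by PAX5. VPREB3 had 115, 2.93 and 5.16 FPKM. SPIC, a factor of the PU.1 family, had 21.0, 1.47 and 1.13 FPKM, K123 had 32.5, 2.16 and 1.32, and LOC419333 had 15.1, 1.35 and 1.31. With CXCR5 these genes reached that mean count only through pool 1, so their place in this ranking adds nothing independent to the B cell list. The other 3 of the 10 genes with the largest CV were high in pool 2: LOC107049264 with 0.92, 26.5 and 3.80 FPKM, LOC107055478 with 5.50, 49.7 and 3.21, and LOC427933 with 6.31, 57.7 and 11.7. These 3 in turn reached a mean count of at least 200 only through pool 2, and the sources used here give them no name or role.

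A pair of chemokines was likewise highest in pool 1. CXCL13, which attracts CXCR5-bearing B cells, had 96.1, 3.41 and 6.70 FPKM, on estimated counts of 353, 12 and 24. CXCL13L2, listed as its relative, had 92.4, 2.22 and 2.81 FPKM, on estimated counts of 304, 7 and 9. Both reached the mean count of 50 by which they were named only through pool 1, so they add nothing independent to the B cell list. CCL20, which draws lymphocytes and dendritic cells to the epithelium in mammals, was also highest in pool 1, with 57.6, 45.3 and 20.3 FPKM. Most cytokine genes were less uneven than the CXCL13 pair. Yet 6 of 30 (20.0%) were past 2-fold, beside 8.84% of all 13104 genes, and the median CV was 23.9%, beside 11.1%. IL15, a survival factor of lymphocytes in the epithelium, led with 334, 344 and 417 FPKM, TNFSF10, a death ligand, had 241 ± 30.8, LITAF 219 ± 22.5 and CCL1 61.7 ± 14.8. CSF3 had a count of 0 in all pools.

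T cell genes, like 14 of 19 B and plasma cell genes, were mostly lowest in pool 3. CD3D and CD3E, chains of the T cell receptor complex, had 553, 627 and 503 FPKM and 146, 167 and 119 FPKM. PTPRC, the pan-leukocyte phosphatase CD45, had 93.1, 76.8 and 53.9, and CD247, the zeta chain, 50.7 ± 7.34. CD8A had 19.5, 31.7 and 19.7 FPKM, against 28.0, 23.8 and 19.0 for CD4. Of 24 T cell genes, 19 were lowest in pool 3, beside 4481 of 13104 genes, and 11 were highest in pool 1 and 12 in pool 2. Genes of cytotoxic lymphocytes were all highest in pool 2, 14 of 14 with a mean count of at least 10, where 4860 of 13104 genes were. GNLY, a granule protein that permeabilises membranes, had 2299, 2718 and 1984 FPKM. GZMA, a granule protease, had 297, 448 and 226, CD7 124, 206 and 153, and GZMK 33.6, 62.0 and 34.6. The sizes were modest, and 2 of 14 differed at least 2-fold, beside 8.84% of all genes.

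Genes of antigen presentation held 1.98% ± 0.103 of the summed FPKM. After B2M, the class II chaperone CD74 had 3449, 3632 and 3649 FPKM and the class I heavy chain BF2 2833 ± 271. BLB2, a class II beta chain, had 2721, 1537 and 3136 FPKM, while its neighbour in the complex BLB1 had 897, 1244 and 1154. The 2 beta chains were thus in opposite order between pools 1 and 2. They are near copies, and how the counting divided reads between them was not tested. Among macrophage and dendritic cell genes outside the class II complex, LGALS3 had 950 ± 177 FPKM, with pool ranges that overlapped those of BLB1. Lower were the lysosomal protease CTSS at 268 ± 13.4 and the complement chains C1QA, C1QB and C1QC at 54.1 ± 14.4, 42.7 ± 17.7 and 54.6 ± 17.6. MARCO, a scavenger receptor, was lowest in pool 1, with 3.38, 9.68 and 6.87 FPKM. In that list 7 of 30 genes differed at least 2-fold, beside 8.84% of all genes.

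Interferon-responsive genes were uneven in another way, with 25 of 33 lowest in pool 1, where 4787 of 13104 genes were. They held 0.593%, 0.691% and 0.975% of the summed FPKM. IFI6, an antiviral membrane protein, had 2939, 3249.8 and 5327 FPKM, IFI27L2 959, 932 and 1461, and the gene listed as IFITM3 540.05, 605 and 712. IFIT5, which binds viral RNA, had 38.1, 74.5 and 92.7 FPKM, and SAMD9L, a restriction factor, 4.51, 14.2 and 16.6. The gene listed as USP18, which limits the interferon signal, had 27.3, 47.0 and 70.0. All 3 were lowest in pool 1 and highest in pool 3. In this list 7 of 33 genes differed at least 2-fold, beside 8.84% of all genes.

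Lists of other blood cells held small shares of the summed FPKM, up to 0.0563% ± 0.0132 for mast cells and 0.0401% ± 0.0127 for heterophils, the avian granulocytes. RSFR, a leukocyte ribonuclease, had 181, 383 and 255 FPKM, but the granulocyte protein S100A9, named S100A12 in the later annotation, had 2.14, 0.84 and 3.03. Haemoglobin genes, which nucleated avian red cells express, were low, with HBA1 at 41.7 ± 4.78 FPKM and HBBA at 40.6 ± 4.84. Genes of thrombocytes, the clotting cells of birds, held 0.00929% ± 0.000686 of the summed FPKM, and PLEK, which leukocytes also express, had 18.3, 7.81 and 5.35 FPKM. The mast cell list rested on HPGDS. Beside it, KIT, the stem cell factor receptor, had 1.86 ± 0.552 FPKM and HDC, which makes histamine, 3.84 ± 1.22.

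Connective tissue and vessel genes were mostly lowest in pool 1. This held for 19 of 25 fibroblast genes, 18 of 20 endothelial genes and 6 of only 8 pericyte genes, beside 4787 of 13104 genes. The median difference of pool 1 from the mean of the pools was -0.25, -0.24 and -0.23 on the log2(FPKM + 1) scale. SPARC, a matrix protein, had 108, 173 and 143 FPKM, COL3A1 97.8, 152 and 154, and FN1, fibronectin, 29.4, 54.3 and 46.7. VIM, vimentin, did not follow, with 81.4, 74.3 and 71.0. PLVAP, of fenestrated capillaries, had 78.5, 91.5 and 114 FPKM, LYVE1, of lymphatic vessels, 23.7, 36.2 and 48.2, and RGS5, of pericytes, 52.2, 88.0 and 81.9. These genes were thus lowest in the pool where mature B cell genes were highest, although EBF1, which the B cell and pericyte lists share, was highest in pool 1. The part of either change in the other was not tested.

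Smooth muscle genes followed yet another order, with 16 of 19 highest in pool 3, beside 4315 of 13104 genes. ACTG2, enteric smooth muscle actin, had 212, 98.6 and 248 FPKM, TAGLN, transgelin, 178, 124 and 243, and CNN1, calponin, 59.5, 32.0 and 77.4. TPM1, a tropomyosin that epithelial cells also express, was even, at 446 ± 12.5. FLNA, a filamin, went against them, with 1.74, 7.17 and 4.76. Smooth muscle genes held 0.168% ± 0.0298 of the summed FPKM. Nerve genes were lower. The enteric neuron list held 0.00277% ± 0.000301, with STMN2 at 6.03 ± 2.54 FPKM, UCHL1 at 5.49 ± 0.289 and GAP43 at 0 counts. Among glial genes FABP7 had 20.1 ± 2.84 FPKM, and the receptor ERBB3, which epithelial cells also express, 19.6 ± 0.424. The list of interstitial cells of Cajal, the pacemakers of the muscle layer, held 0.00191% ± 1.27e-05, with ANO1, their chloride channel, at 1.12 ± 0.173.

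**Figure D4:**
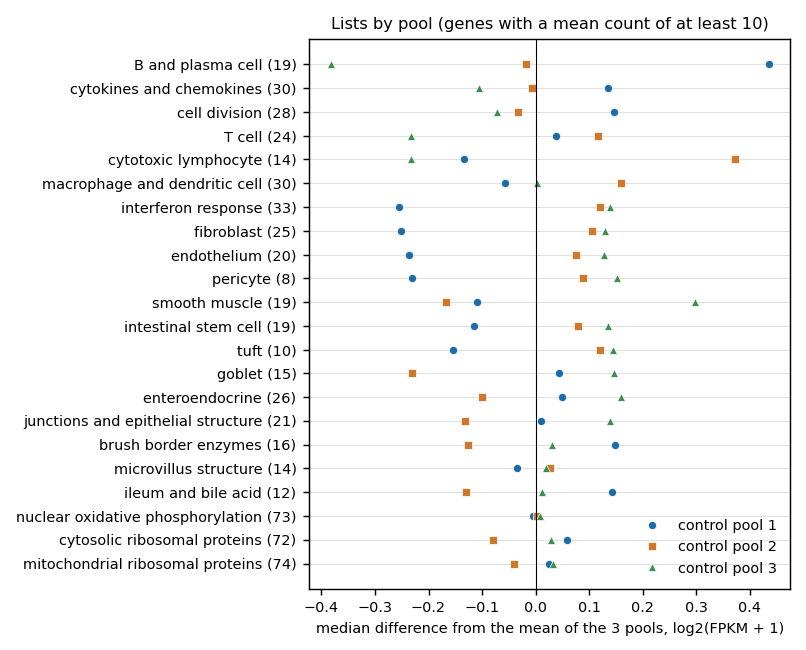
Median difference of each control pool from the mean of the 3 pools, on the log2(FPKM + 1) scale, for the genes of each list with a mean count of at least 10 (number in brackets). Pool 1 lay highest for B and plasma cell genes and lowest for interferon, fibroblast and endothelial genes, pool 2 highest for cytotoxic lymphocyte genes, pool 3 highest for smooth muscle genes, and oxidative phosphorylation genes showed almost no difference.

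Markers of neighbouring organs were low beside those of enterocytes. Pancreatic enzyme genes held 0.0014% ± 0.000106 of the summed FPKM, and CTRC and PTF1A had a count of 0 in all pools. The only pancreas list member above an FPKM of 1 in every pool was AMY1A, an amylase, at 8.11 ± 2.14. Stomach genes held 0.000286% ± 7.7e-05, none reached an FPKM of 1 in every pool, and GKN1 had a count of 0. Liver genes held 0.00718% ± 0.000258, and 6 of 22 reached an FPKM of 1 in every pool. ALB, albumin, the leading hepatic product, had 0.497 ± 0.095 FPKM and AHSG a count of 0, while F2, prothrombin, had 15.9 ± 2.90, FETUB 14.1 ± 2.78, TF, transferrin, 13.4 ± 2.94 and C3, a complement protein, 7.87 ± 1.66.

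In the list of ileal and bile acid genes, 3 of 12 differed at least 2-fold, beside 8.84% of all genes. FABP6, the bile acid carrier that marks the ileum in mammals, had 483, 121 and 597 FPKM. SLC10A2, the bile acid importer of the mammalian ileum, had 4.25, 1.07 and 4.60 FPKM. Both were lowest in pool 2. PDX1, from the list of transcription factors, marks the duodenum and pancreas in mammals and was highest in that pool, with 1.5, 7.28 and 0.44 FPKM. FGF19, the bile acid induced hormone, had 37.13, 21.96 and 10.99 FPKM and did not share this order. Among the others, the exporter subunits SLC51A and SLC51B had 241 ± 32.0 and 57.3 ± 8.88 FPKM, BAAT, which conjugates bile acids, 96.6 ± 9.72, and AMN, of the vitamin B12 receptor, 73.7 ± 14.5. CYP7A1, the first enzyme of bile acid synthesis in liver, had a count of 0. The labels do not say where along the jejunum each hen was sampled.

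Transcription factors of intestinal identity held 0.154% ± 0.00272 of the summed FPKM. GATA5 had 431, 382 and 344 FPKM and ELF3, an epithelial factor, 306, 264 and 356, with overlapping ranges. CDX1 and CDX2, which specify intestine, had 105 ± 5.62 and 78.0 ± 4.66 FPKM, and HNF4G and HNF4A, which control enterocyte genes, 103 ± 8.14 and 47.7 ± 2.11. PROX1 was less uneven than PDX1, at 2.14, 1.51 and 2.71. Of 29 factors, 3 (10.3%) differed at least 2-fold, close to the 8.84% of all genes. Among nuclear receptors, HNF4G lay above all others, followed by NR0B2, a corepressor raised by bile acids (60.3 ± 6.06), VDR, and NR1H3, the oxysterol receptor (58.9 ± 6.85), whose ranges overlapped. NR5A1 and RORB had a count of 0, and 5 of 37 receptors (13.5%) differed at least 2-fold, beside 8.84% of all genes.

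Genes of the mitochondrion and the ribosome were among the steadiest groups, beside those of the microvillus. The 73 nuclear genes of oxidative phosphorylation held 4.69%, 4.83% and 4.83% of the summed FPKM in pools 1, 2 and 3, with a median CV of 4.83% and 0 of 73 past 2-fold. The cytosolic ribosomal proteins held 25.0% ± 0.842, with a median CV of 5.99% and 0 of 72 past 2-fold, and the mitochondrial ribosomal proteins 0.818% ± 0.0175, with 0 of 74. Of the cytosolic ribosomal genes, 59 of 72 were lowest in pool 2, beside 3836 of 13104 genes. That share is not matched to length, and over all genes pool 2 was slightly lower for short genes (Spearman's rho of 0.148 with implied length). The part of length in the ribosomal order was not tested. By contrast, the lowest pool of oxidative phosphorylation genes was pool 1, 2 and 3 for 24, 24 and 25 genes. The median CV of all genes was 11.1%, and all 3 lists lay below it. They also lay below the 7.67% of genes with a mean count of at least 1000. At that depth 1.47% of genes were past 2-fold, and 3.25% at a mean count of 200 to 1000. The counts of 0 past 2-fold are thus close to what depth alone goes with.

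Over all genes the spread between pools exceeded counting error. The median CV of 11.1% stood beside 5.01% from counting alone, and 81.4% of 13104 genes lay above their own counting CV. At least 2-fold between the highest and lowest pool were 1159 genes. Their share depended on depth: it was 35.2% at a mean count of 10 to 50, 10.7% at 50 to 200, 3.25% at 200 to 1000 and 1.47% at 1000 or more. The biological coefficient of variation, edgeR's estimate of the spread beyond counting, was 0.170, and 0.147 without pool 1. Pool 1 was at least 2-fold above each other pool for 183 genes (1.4%) and below for 124 (0.946%), pool 2 above for 80 (0.611%) and below for 137 (1.05%), and pool 3 above for 65 (0.496%) and below for 74 (0.565%). Pearson's r across genes, on the log2(FPKM + 1) scale, was between 0.987 and 0.990 for each pair, a description over genes of 3 libraries. A gene's difference from the pool mean was related to its implied length in pools 1 and 2, with Spearman's rho of -0.155 and 0.148 across 13104 genes, and hardly in pool 3 (0.012). So pool 1 was slightly higher for short genes and pool 2 for long ones.

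**Figure D5:**
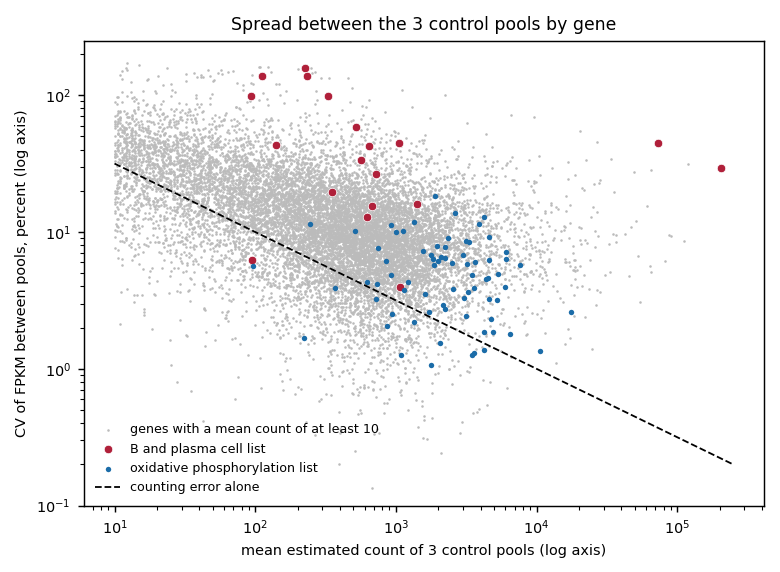
CV of FPKM between the 3 control pools (percent, log axis) against the mean estimated count (log axis) for genes with a mean count of at least 10, with the CV that counting alone gives as a dashed line. Several B and plasma cell genes lie far above genes of like count, and oxidative phosphorylation genes lie among the steadier genes.

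The steadiest genes with a mean count of at least 200 were NUP54, of the nuclear pore, with 14.90, 14.88 and 14.86 FPKM, GMCL1 with 17.29, 17.35 and 17.29, and IRF2, a factor that restrains interferon responses, with 80.10, 79.90 and 80.29. The others were ADGRA3L, SEMA5B, RP11-762I7.5, TRIT1, FRS3, PEX10 and DNMT3B. NUP54 had a CV of 0.134% at a mean count of 674, below the CV of 3.85% that counting alone gives at that count. Each of the others likewise lay below its counting CV, so the steadiness of these genes is not resolved at this depth.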

How the data were processed

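RNA sequencing libraries of 3 control pools were used, grouped by the sample titles. The submitters' processing notes name cutadapt 1.9.1, HISAT2 2.0.1, HTSeq 0.6.1, DESeq2 and the build GRCg6a, with no role or order. The authors deposited 1 table of 16317 genes that holds, per the file headers, 1 estimated count for each gene in each library. By its values, 13.44% to 13.65% of these are not whole within 0.001, and no source names the tool behind them. The authors deposited FPKM values beside them, with no statement of the gene length used. The implied length is the count divided by FPKM and library total. The library kit is described as poly(A) selection or ribosomal RNA removal, and the strand setting is not given, so antisense, overlapping and near-identical genes are uncertain. Symbols of 20 genes had become dates and were named by gene identifier from RefSeq. That annotation (15169 identifiers matched, 93.0%) is of the later assembly GRCg7b, so coordinates were left out.

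Levels are deposited FPKM, unscaled. No test was made, since 1 group was described. Spread is the CV over 3 pools beside 1 divided by the square root of the mean count, and the ratio of highest to lowest pool (at least 2, mean count at least 10). Estimated counts were rounded for edgeR 4.0.16 in R 4.3.3 (estimateDisp, intercept only). Counts of each pair of pools differed beyond sampling noise, with a chi-square of 21.3 to 22.7 per degree of freedom, and each pool was counted as 1 replicate. Lists (45, with 1009 genes matched by symbol, 41 of them under another symbol in the later annotation) and genes were chosen with earlier results of these data known. Named were the 30 most abundant genes, in each list the 4 most abundant members, members at 0 counts and the 3 with the largest ratio of highest to lowest pool (mean count at least 50), and the 10 most and 10 least variable genes (mean count at least 200). Other names were chosen after their values were seen. Promoter motifs, which were planned, were not analysed here. Some genes named by this rule are not reported here. The scripts were checked on simulated data. Python 3.11.15, pandas 2.3.3, numpy 2.4.6 and matplotlib 3.10.9 were used.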

Additional observations from a re-analysis of the deposited data

How the results depend on the processing

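With 3 pools of 4 hens, single birds, pooling and library making cannot be told apart, and no outlier test was made for groups of 3. No paired analysis was possible because 1 group was described and no test was made. Abundance depends most on length: by counts the 10 leading genes held 7.05% and the 100 leading genes 22.6%, fat uptake genes held 1.88%, oxidative phosphorylation 1.60% and cytosolic ribosomal proteins 6.52%, and 10 of the 30 leading genes were shared with the 30 with most counts (an alternative chosen after seeing the data). Of the 45 lists, 18 were lower and 27 higher by counts than by FPKM. At an FPKM of at least 10 in all pools, 6331 genes were detected. The 1159 genes past 2-fold were 3331 with no filter, 500 at a mean count of at least 50, 228 at a mean count of at least 200 (chosen after seeing the data), 678 at a mean FPKM of at least 1 and 381 on FPKM + 1. Leaving out each pool gave 510 to 689, and fewer are reached with 2 pools by construction. Of B and plasma cell genes 0 to 9 were then past 2-fold, with 0 without pool 1, and the biological coefficient of variation was 0.147 to 0.179. Counts of 0 allow up to 3 counts per pool, for counting error only.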

Other observations

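Many genes that handle foreign compounds were abundant in the control mucosa. Of 35 list members, 33 had an FPKM of at least 1 in every pool, beside 11349 of 16317 genes. An FPKM of 100 or more in every pool was reached by 14 of 35, beside 1003 of 16317 genes. MGST1, a membrane glutathione transferase, had 760.2, 979 and 928 FPKM in pools 1, 2 and 3, and SULT1C3, a sulfotransferase, 852, 746 and 620.0. MGST2 had 732 ± 29.4 FPKM (SD, n = 3) and MGST3 439.8 ± 33.2. The most uneven members were P450 genes. CYP1A1, which ligands of the aryl hydrocarbon receptor induce, had 41.9, 25.0 and 6.69 FPKM and CYP1A2, of the same family, 21.1, 14.2 and 4.60, so both were highest in pool 1 and lowest in pool 3. CYP2W1 had 6.64, 1.15 and 7.89 and was lowest in pool 2. In this list 4 of 34 genes differed at least 2-fold, beside 8.84% of all 13104 genes.

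Retinoid and metal genes were led by single carriers. After RBP2, ALDH1A1, which makes retinoic acid, had 290.2 ± 19.4 FPKM, SCARB1, a receptor for carotenoids and lipoproteins, 227.5 ± 36.1 and BCO1, which cleaves beta-carotene, 117 ± 18.3. After FTH1, the copper chaperone ATOX1 had 390.2 ± 42.4 FPKM, the manganese exporter SLC30A10 107 ± 15.8 and the copper importer SLC31A1 53.1 ± 4.92. CYBRD1, the duodenal ferric reductase of mammals, had 12.7, 17.9 and 24.7 FPKM and the iron exporter SLC40A1 34.3, 41.5 and 23.0, so they did not share an order. MT3 had a count of 0 in all pools. Genes used as references in quantitative PCR had 0 of 23 past 2-fold and a median CV of 7.74%. That was close to the 7.67% of all genes with a mean count of at least 1000, of which 1.47% were past 2-fold. Of the reference genes, GAPDH had 2019, 2069 and 1785 FPKM, and 14 of 23 were highest in pool 1, beside 3929 of 13104 genes.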
